A study of Mus musculus with 13 samples.

Results

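The 10 genes of the p53 and cell cycle arrest programme described here were measured in quadriceps muscle of young mice, aged mice and aged mice given an inhibitor of a prostaglandin-degrading enzyme. They are Cdkn1a (p21), Cdkn2a (p16 and Arf), Cdkn2b (p15), Eda2r, Trp53 (p53), Mdm2, Ccng1, Bax, Phlda3 and Trp53inp1, taken by name as 10 of the 24015 genes in the deposited table. They were selected on their TPM differences between aged and young vehicle muscle of batch 1, with those results known, so their values in that comparison are given as a description, with no test. Treatment with SW033291 was not used in the choice, and there each gene was tested. All 10 genes passed the filter on low values, 1 TPM or more in at least 3 of the 13 libraries, which 11876 genes passed.

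Whole quadriceps lysates of C57BL/6 mice were sequenced in 13 libraries. The aged SW033291 group of batch 2 held 3 libraries (replicates 1, 4 and 6) from mice labelled as over 24 months old, injected daily with SW033291 at 5 mg/kg for 4 weeks. The aged vehicle group of batch 2 held 3 libraries (replicates 2, 3 and 8) from mice of the same labelled age, given vehicle for the same 4 weeks. The aged vehicle group of batch 1 held 3 libraries (replicates 2, 3 and 4), also from mice over 24 months old, and the young vehicle group of batch 1 held 4 libraries (replicates 1, 3, 4 and 5) from mice of 3 months. Vehicle was a mixture of ethanol, Cremophor EL and dextrose water in every group. Young mice given SW033291 are not analysed here, so the inhibitor was compared within aged muscle only, and age and treatment were each compared within 1 batch.

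p53 is a transcription factor held low in unstressed cells by Mdm2, a ubiquitin ligase that is itself a p53 target. After DNA damage and other stress p53 raises inhibitors of the cell cycle such as p21 and genes of cell death such as Bax. p16 and p15 block the cyclin D kinases upstream of the retinoblastoma protein, and p21 and p16 are widely used as markers of senescent cells. Eda2r is the receptor for the ectodysplasin form EDA-A2, a p53 target and a gene whose transcript is known to be higher in aged tissues. SW033291 inhibits 15-PGDH, the enzyme that begins the breakdown of prostaglandin E2.

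The upstream windows of these genes are shown because p53 control of Cdkn1a and Ccng1 rests on sites in their promoters. RefSeq start sites (build GRCm38.p6) gave 11 windows of 250 bases for the 9 genes other than Trp53inp1. In the lines below capitals mark matches, on either strand, to the p53 decamer, the 10-base repeat that p53 binds as an adjacent pair, and adjacent pairs with at most 1 mismatch. The 2 windows of Cdkn1a, the window of Ccng1, that of Eda2r and that of the p16 transcript of Cdkn2a are printed 5′ to 3′ on the gene's strand.
Cdkn1a, upstream start (chr17:29090729-29090978, plus strand): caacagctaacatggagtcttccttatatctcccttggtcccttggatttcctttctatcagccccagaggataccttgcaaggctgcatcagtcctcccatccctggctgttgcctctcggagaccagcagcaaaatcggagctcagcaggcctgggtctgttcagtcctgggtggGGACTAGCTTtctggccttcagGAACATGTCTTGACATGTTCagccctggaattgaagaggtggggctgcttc
Cdkn1a, downstream start (chr17:29093519-29093768, plus strand): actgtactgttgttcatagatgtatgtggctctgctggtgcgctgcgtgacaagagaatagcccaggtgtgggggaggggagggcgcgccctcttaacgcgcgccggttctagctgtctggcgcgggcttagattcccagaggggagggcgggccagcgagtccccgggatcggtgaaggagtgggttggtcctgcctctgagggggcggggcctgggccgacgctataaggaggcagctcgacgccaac
Ccng1 (chr11:40755287-40755536, minus strand): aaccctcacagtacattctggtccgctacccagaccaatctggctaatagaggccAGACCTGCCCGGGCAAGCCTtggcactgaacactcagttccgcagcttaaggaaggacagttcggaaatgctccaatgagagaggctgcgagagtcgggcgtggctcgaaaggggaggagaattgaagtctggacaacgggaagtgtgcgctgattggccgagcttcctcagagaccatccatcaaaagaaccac
Eda2r (chrX:97377210-97377459, minus strand): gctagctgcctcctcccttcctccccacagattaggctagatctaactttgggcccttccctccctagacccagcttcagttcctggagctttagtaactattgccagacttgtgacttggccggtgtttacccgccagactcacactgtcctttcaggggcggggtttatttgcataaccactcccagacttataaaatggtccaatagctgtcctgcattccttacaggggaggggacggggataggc
Cdkn2a, start of the p16 transcript (chr4:89282193-89282442, minus strand): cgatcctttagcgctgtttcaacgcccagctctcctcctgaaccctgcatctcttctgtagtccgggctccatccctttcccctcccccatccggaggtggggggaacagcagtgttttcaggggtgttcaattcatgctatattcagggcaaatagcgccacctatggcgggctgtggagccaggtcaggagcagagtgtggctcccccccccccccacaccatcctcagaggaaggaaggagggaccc
The upstream window of Cdkn1a held the adjacent pair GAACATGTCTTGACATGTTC, from 51 to 32 bases before the start, and a further single decamer from 73 to 64 bases before it. The window of Ccng1 held the adjacent pair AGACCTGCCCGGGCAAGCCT, from 195 to 176 bases before the start. Such a pair, with at most 1 mismatch to the consensus, stood in 2 of the 11 windows, against 0.0761% of all 32851 promoter windows of the same length. Known sites in these 2 promoters were the reason for showing the windows, so this count is a description and no test. A single decamer without mismatch stood in 5 of the 11 windows (those of Bax, Mdm2, Ccng1, Trp53 and the upstream start of Cdkn1a), against 7.13% of all windows, and every adjacent pair found here holds at least 1 of them. The GC box letters GGGCGG, searched on both strands, stood in 6 of the 11 windows and in 32.7% of all. The windows of Eda2r and of p16 held no p53 decamer, which speaks only of these bases, and a match is a run of letters, not shown to be bound here.

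Levels are given in TPM (the part a gene takes of all transcripts sequenced, corrected for length), and differences as log2(TPM + 1) of the first group named minus the second, with the SE from 1 linear model over all 13 libraries (limma). A change is understated on this scale for genes near 1 TPM. Read depth cannot be recovered from TPM, so counting error is unknown. Nothing in the labels says that the libraries of a group came from separate animals, so p-values measure only the spread between these samples. In whole muscle, fewer cells of a type and less RNA per cell cannot be told apart. In young muscle the myofibre markers summed to 211490 to 223601 TPM, above every aged vehicle library. They summed to 180385 to 209352 TPM in aged vehicle muscle of batch 1, 203238 to 205562 TPM in batch 2 and 198573 to 219624 TPM in SW033291 muscle. The 6 satellite cell markers summed to 29.91 to 32.94 TPM in SW033291 muscle, wholly below aged vehicle muscle of batch 2 (33.48 to 45.92 TPM). They summed to 29.89 to 50.01 TPM in aged vehicle muscle of batch 1 and 36.84 to 47.5 TPM in young muscle. Of these 6, Pax7, Myf5 and Calcr stayed under 1 TPM throughout. The total of 10 neutrophil markers was 1766 TPM in replicate 4 of aged vehicle batch 1 and 780.3 TPM in replicate 2 of aged vehicle batch 2, against 0.88 to 2.92 TPM in young libraries. In the treated group it was 233.7 TPM in replicate 4, against 9.53 and 6.33 TPM in replicates 1 and 6. The total of 7 red cell markers was 2105 TPM in replicate 4 of aged vehicle batch 1 and 1173 TPM in replicate 2 of aged vehicle batch 2, against 132.8 to 552.1 TPM in the other 11 libraries. Replicate 4 of aged vehicle batch 1 also had the highest totals of 13 dividing-cell genes, 71.16 TPM, and of macrophage markers, 226.7 TPM. Age differences of the 10 genes that moved by more than 1.5 times without that library are given with and without it. Those of other named genes were not recomputed without it. The part of these cells in any result was not tested.

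**Figure D1:**
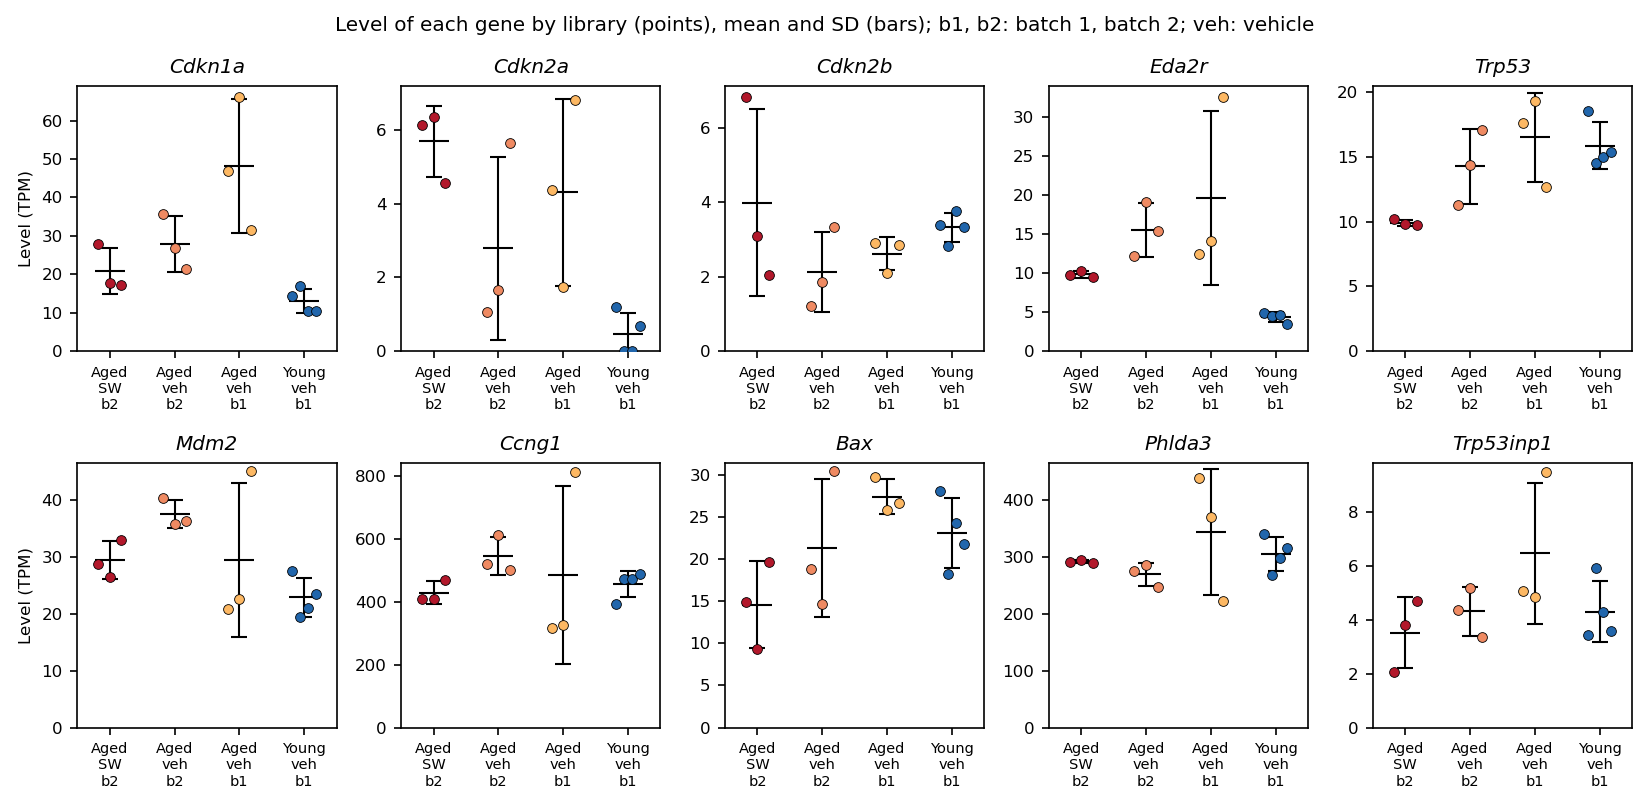
Level in TPM (vertical axes, linear from 0) of the 10 genes in each of the 13 libraries (points) by group (horizontal axis), with the mean and SD of each group as bars. Cdkn1a and Eda2r stand above young muscle in every aged library, and replicate 4 of aged vehicle batch 1 is the high point for Cdkn2a, Eda2r, Mdm2, Ccng1 and Trp53inp1.

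The order of levels was set by Ccng1 and Phlda3. Ccng1, which encodes cyclin G1, an atypical cyclin that recruits a phosphatase to Mdm2, averaged 429.1 ± 35.9 TPM in aged SW033291 muscle, 545.1 ± 60.0 TPM in aged vehicle muscle of batch 2, 484.5 ± 283.7 TPM in aged vehicle muscle of batch 1 and 456.6 ± 42.5 TPM in young muscle (SD, n = 3, 3, 3 and 4). Phlda3, a pleckstrin homology protein that restrains Akt, was second in every group, with means between 269.6 and 344.2 TPM. The ranges of Ccng1 and Phlda3 did not overlap in 3 of the 4 groups, and overlapped in aged vehicle muscle of batch 1. In each group Mdm2, Bax, Cdkn1a, Trp53 and Eda2r followed with means between 4.39 and 48.2 TPM, and several neighbours in that order overlapped. Cdkn2a, Cdkn2b and Trp53inp1 were lowest, with means between 0.465 and 6.46 TPM. Cdkn1a ranked next after Phlda3 in aged vehicle muscle of batch 1, while in young muscle it stood below Bax, Mdm2 and Trp53.

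Cdkn1a, whose product p21 inhibits cyclin-dependent kinases, was high in all aged libraries of batch 1. Its level was 46.88, 66.20 and 31.50 TPM in aged vehicle muscle of batch 1, against 14.25, 17.02, 10.35 and 10.56 TPM in young muscle. Every aged library stood above every young one, and the lowest aged library was replicate 4. The log2 difference was 1.77 (SE 0.26), a 3.42-fold ratio on the log2(TPM + 1) scale, and it lay between 1.52 and 2.04 when single libraries were left out. In the authors' deposited table for age Cdkn1a had a log2 fold change of 1.42 (SE 0.31). That table holds 813 genes, among them 3 of the 10 (Cdkn1a, Cdkn2a and Eda2r). The sources used here do not say which libraries entered it.

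Eda2r varied little among young libraries and was higher in aged ones. It stood at 12.44, 14.10 and 32.57 TPM in aged vehicle muscle of batch 1, against 4.91, 4.48, 4.61 and 3.54 TPM in young muscle. The groups did not overlap, and replicate 4 lay far above the other aged libraries. The log2 difference was 1.82 (SE 0.26), and 1.41 at the lowest, without replicate 4 of the aged group. The authors' deposited table for age gave 1.80 (SE 0.26) for Eda2r.

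Cdkn2a was barely detected in young muscle. Its level was 4.37, 1.74 and 6.81 TPM in aged vehicle muscle of batch 1, against 1.19, 0, 0 and 0.67 TPM in young muscle, so that it was listed at 0 in 2 of the 4 young libraries. Every aged library stood above every young one, the lowest of them narrowly. The log2 difference was 1.81 (SE 0.43) with a pseudocount of 1, and 3.61 with a pseudocount of 0.1. The TPM table does not separate p16 from Arf, which share exons of this gene. The authors' deposited table for age gave Cdkn2a a log2 fold change of 2.54 (SE 0.73) at a mean normalised count of 8.17.

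The neighbour of Cdkn2a on chromosome 4, Cdkn2b, which encodes the related inhibitor p15, did not share this pattern. Cdkn2b stood at 2.91, 2.11 and 2.84 TPM in aged vehicle muscle of batch 1, against 3.39, 2.82, 3.75 and 3.34 TPM in young muscle, a log2 difference of -0.26 (SE 0.29), or -0.15 without replicate 3 of the aged group. Both genes shared no run of 50 bases in the reference transcripts, so their reads are told apart by sequence.

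Trp53 itself overlapped between aged and young muscle. It stood at 17.59, 19.28 and 12.67 TPM in aged vehicle muscle of batch 1, against 18.52, 14.51, 15.00 and 15.33 TPM in young muscle, with overlapping groups and a log2 difference of 0.04 (SE 0.17), which became -0.02 with median-of-ratios scaling, 0.21 without replicate 4 of the aged group and -0.07 without replicate 3. Bax, which permeabilises mitochondria in cell death, differed by 0.25 (SE 0.25), and by 0.15 without young replicate 3, with 29.74, 25.77 and 26.66 TPM in aged vehicle muscle of batch 1 against 18.22 to 28.09 TPM in young muscle. Trp53inp1, a p53-induced nuclear protein, differed by 0.46 (SE 0.26), and by 0.19 without replicate 4 of the aged group, with 5.06, 4.86 and 9.46 TPM in aged vehicle muscle of batch 1 against 3.43 to 5.91 TPM in young muscle.

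For Mdm2, Ccng1 and Phlda3 the sign of the difference depended on which aged library was left out. Mdm2 stood at 20.82, 22.54 and 45.06 TPM in aged vehicle muscle of batch 1, against 27.47, 19.41, 21.06 and 23.39 TPM in young muscle. Its log2 difference was 0.28 (SE 0.21) with all 3 aged libraries, -0.06 without replicate 4 and 0.48 without replicate 2. Ccng1 stood at 315.6, 325.9 and 811.9 TPM in aged vehicle muscle of batch 1, against 394.1, 471.6, 471.6 and 489.2 TPM in young muscle. Replicate 4 was the highest of the 13 libraries for Ccng1 and the other 2 aged libraries of its batch were the lowest, so the log2 difference was -0.06 (SE 0.25) with all 3 aged libraries, -0.50 without replicate 4, 0.18 without replicate 2 and 0.15 without replicate 3. Phlda3 ran the other way, with 439.9, 369.6 and 223.3 TPM in aged vehicle muscle of batch 1 against 340.1, 269.2, 298.1 and 316.0 TPM in young muscle. Its difference was 0.12 (SE 0.17) with all 3 aged libraries, 0.40 without replicate 4 and -0.08 without replicate 2.

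Counted together, 3 of the 10 genes (Cdkn1a, Cdkn2a and Eda2r) stood above young muscle in every aged library of batch 1, where 8.85% of all genes tested did, and 0 stood below, where 2.70% did. With replicate 4 of the aged group left out, 4 genes stood above (Phlda3 added, background 16.2%) and 1 below (Ccng1, background 10.8%). Since this comparison served to choose the genes, nothing is read from these counts. The median log2 difference of the 10 genes was 0.27, beside 0.06 over all genes tested.

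The aged vehicle libraries of batch 2 give the same measure in samples outside that comparison. They share the young libraries with it, and age and batch cannot be told apart there. Cdkn1a stood at 35.80, 26.73 and 21.42 TPM in aged vehicle muscle of batch 2, above all young libraries, with a log2 difference of 1.04 (SE 0.26) from young muscle, or 0.84 with median-of-ratios scaling. Eda2r stood at 12.19, 19.15 and 15.37 TPM there, also above all young libraries, with a difference of 1.61 (SE 0.26). Cdkn2a stood at 1.07, 1.67 and 5.64 TPM, overlapping young muscle through replicate 2, with a difference of 1.27 (SE 0.43), or 0.77 without replicate 8. Mdm2 stood at 40.31, 35.80 and 36.33 TPM, above all young libraries, a difference of 0.70 (SE 0.21) that was 0.49 with median-of-ratios scaling. Ccng1 stood at 520.2, 613.5 and 501.5 TPM, above all young libraries, a difference of 0.25 (SE 0.25) that was 0.04 with that scaling and 0.17 without replicate 3. In all, 4 of the 10 genes stood above young muscle in every aged vehicle library of batch 2, where 28.4% of all genes tested did, and 0 stood below, where 5.84% did. The median of all genes lay 0.16 above young muscle in this comparison, and relative to it Cdkn1a was higher by 0.88, Eda2r by 1.44, Cdkn2a by 1.10 and Mdm2 by 0.54.

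**Figure D2:**
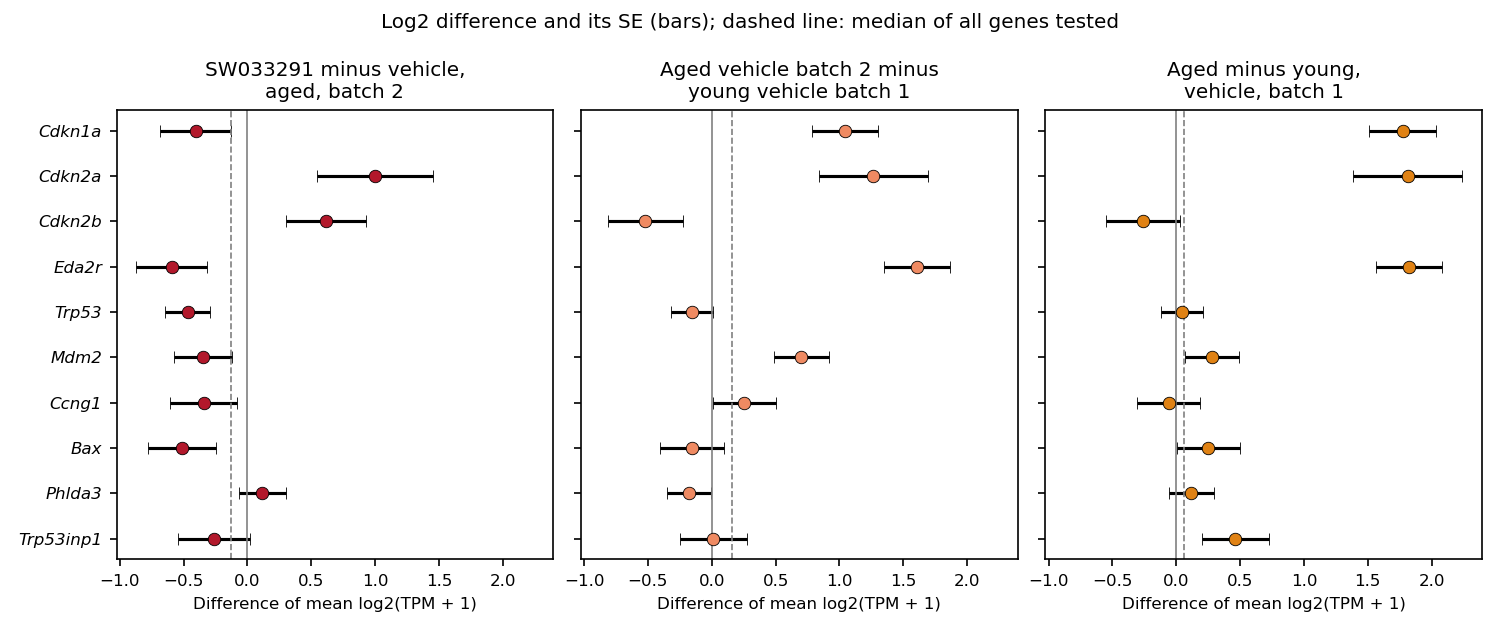
Difference of mean log2(TPM + 1) for each gene (points) with its SE (bars) for SW033291 minus vehicle in aged muscle, aged vehicle batch 2 minus young, and aged minus young in batch 1, with the median of all genes tested as a dashed line. Cdkn1a, Cdkn2a and Eda2r lie at 1.04 to 1.82 above young muscle in both aged vehicle groups (in batch 2 Cdkn1a falls to 0.84 with median-of-ratios scaling and Cdkn2a to 0.77 without replicate 8), and the treated group lies lower than vehicle for Eda2r and higher for Cdkn2a, with no adjusted p under 0.05.

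Between both aged vehicle groups, none of the 10 genes passed the test. These libraries include the aged group that served to choose the genes. Cdkn1a had a log2 difference of -0.73 for batch 2 minus batch 1 (SE 0.28, limma adjusted p = 0.183), or -0.47 without replicate 3 of batch 1. Mdm2 differed by 0.42 (SE 0.23, limma adjusted p = 0.357), or 0.22 without replicate 2 of batch 1. Of the 10 genes 0 were called, against 2.25% of all genes, and none lay wholly above or below the other batch, against 11.9% above and 4.64% below over all genes. At an unadjusted p under 0.05 there was 1 of the 10 genes (Cdkn1a), against 18.1% of all. Without replicate 4 of aged vehicle batch 1, the log2 difference was -0.999 for Cdkn1a, 0.76 for Mdm2, 0.76 for Ccng1 and -0.58 for Phlda3, and Eda2r changed sign to 0.20. These values rest on libraries used in the choice of the genes and on an omission named for its values, so nothing is read from them.

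The libraries of one group did not move all 10 genes together. Against the young mean on the log2(TPM + 1) scale, replicate 4 of aged vehicle batch 1 stood at 2.50 for Cdkn2a, 2.65 for Eda2r, 0.96 for Mdm2, 0.83 for Ccng1 and 1.00 for Trp53inp1, the highest of the 9 aged libraries for each of these genes. The same library was lowest of its group for Cdkn1a (1.24), Trp53 (-0.29) and Phlda3 (-0.45). In aged vehicle muscle of batch 2, replicate 2 was highest for Cdkn1a (1.42) and lowest for Eda2r (1.30), Cdkn2a (0.58) and Cdkn2b (-0.97), while replicate 8 was highest for Cdkn2a (2.26), Trp53 (0.11) and Bax (0.40). In treated muscle the spread was narrow for Eda2r (0.96 to 1.08), Trp53 (-0.64 to -0.59) and Phlda3 (-0.07 to -0.05).

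**Figure D3:**
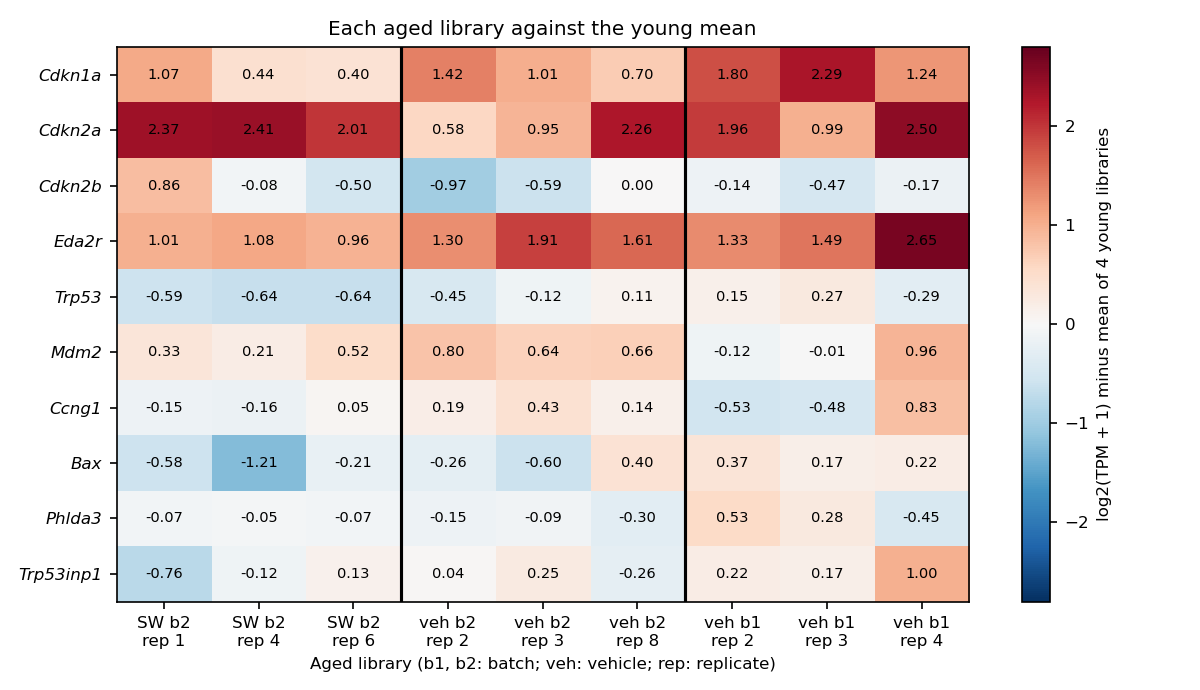
Log2(TPM + 1) of each gene (rows) in each aged library (columns) minus the mean of the 4 young libraries, printed in each cell and shown by colour (red above, blue below the young mean). Cdkn1a, Cdkn2a and Eda2r are above the young mean in all 9 aged libraries, and replicate 4 of aged vehicle batch 1 is highest for Cdkn2a, Eda2r, Mdm2, Ccng1 and Trp53inp1, and lowest of its group for Cdkn1a, Trp53 and Phlda3.

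Treatment of aged mice with SW033291 changed none of the 10 genes past the threshold (limma, Benjamini-Hochberg adjusted p under 0.05 over 11876 genes). None of all genes tested passed either (0.00% called), while 10.3% had an unadjusted p under 0.05, among them 2 of the 10 genes, Trp53 and Cdkn2a. The lowest adjusted p over all genes was 0.180. All genes were shifted by a median of -0.13 log2 units, which median-of-ratios scaling moved to 0.00, so values relative to that median are given too. Of the 10 genes, 7 had a negative difference, beside 71.0% of all genes, and their median was -0.34.

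For the p53 gene itself and for Eda2r the treated libraries lay close together and below vehicle. Trp53 stood at 10.17, 9.78 and 9.76 TPM in SW033291 muscle, against 11.30, 14.38 and 17.07 TPM in vehicle muscle of batch 2. Every treated library was below every vehicle library, and the log2 difference was -0.47 (SE 0.18, 95% interval -0.85 to -0.09), -0.33 relative to the median of all genes, with a limma adjusted p of 0.418. The 3 treated libraries also stood below the 4 young ones for Trp53. Eda2r stood at 9.76, 10.30 and 9.46 TPM in SW033291 muscle, against 12.19, 19.15 and 15.37 TPM in vehicle muscle of batch 2. Its groups did not overlap, and the difference was -0.59 (SE 0.28, 95% interval -1.19 to 0.01), -0.46 relative to the median, with a limma adjusted p of 0.485. Treated Eda2r levels stayed above all 4 young libraries.

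Mdm2 and Ccng1 were the other genes whose treated libraries were all below vehicle. Mdm2 stood at 28.69, 26.38 and 32.96 TPM in SW033291 muscle, against 40.31, 35.80 and 36.33 TPM in vehicle muscle of batch 2, a log2 difference of -0.35 (95% interval -0.84 to 0.15, limma adjusted p = 0.593). Ccng1 stood at 409.6, 407.2 and 470.5 TPM in SW033291 muscle, against 520.2, 613.5 and 501.5 TPM in vehicle muscle of batch 2, a difference of -0.34 (95% interval -0.91 to 0.23, limma adjusted p = 0.637). Relative to the median of all genes both differences were -0.21. Thus 4 of the 10 genes stood below vehicle in every treated library, where 15.1% of all genes tested did, and 1, Phlda3, stood above, where 1.95% did. Phlda3 stood at 290.9, 295.0 and 290.1 TPM in SW033291 muscle, against 275.0, 286.3 and 247.5 TPM in vehicle muscle of batch 2, a difference of 0.12 (95% interval -0.28 to 0.52, limma adjusted p = 0.818), or 0.06 without vehicle replicate 8.

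The cyclin-dependent kinase inhibitors did not share a direction. Cdkn1a stood at 27.86, 17.70 and 17.23 TPM in SW033291 muscle, against 35.80, 26.73 and 21.42 TPM in vehicle muscle of batch 2. The groups overlapped, and the log2 difference was -0.41 (SE 0.28, 95% interval -1.005 to 0.19, limma adjusted p = 0.608), or -0.22 without vehicle replicate 2 and -0.62 without treated replicate 1. All 3 treated libraries stood above young muscle for Cdkn1a, the lowest of them narrowly. Cdkn2a stood at 6.13, 6.36 and 4.57 TPM in SW033291 muscle, against 1.07, 1.67 and 5.64 TPM in vehicle muscle of batch 2, a difference of 1.00 (SE 0.46, 95% interval 0.02 to 1.98, limma adjusted p = 0.479). Replicate 8 of the vehicle group lay among the treated libraries for Cdkn2a, and the difference was 1.50 without it and 0.66 without vehicle replicate 2. With a pseudocount of 0.1 the difference of Cdkn2a was 1.33 with an SE of 0.92, so its interval depends on the pseudocount. Cdkn2b stood at 6.83, 3.09 and 2.04 TPM in SW033291 muscle, against 1.20, 1.86 and 3.32 TPM in vehicle muscle of batch 2, a difference of 0.61 (95% interval -0.06 to 1.29, limma adjusted p = 0.517) with overlapping groups. Without treated replicate 1 the difference of Cdkn2b was 0.23, and without vehicle replicate 2 it was 0.39.

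The remaining genes, Bax and Trp53inp1, overlapped between treated and vehicle muscle. Bax stood at 14.92, 9.28 and 19.59 TPM in SW033291 muscle, against 18.82, 14.66 and 30.38 TPM in vehicle muscle of batch 2, a difference of -0.51 (95% interval -1.08 to 0.06, limma adjusted p = 0.524), or -0.23 without vehicle replicate 8 and -0.24 without treated replicate 4. Trp53inp1 stood at 2.08, 3.80 and 4.69 TPM in SW033291 muscle, against 4.36, 5.19 and 3.37 TPM in vehicle muscle of batch 2, a difference of -0.26 (95% interval -0.86 to 0.34, limma adjusted p = 0.732), or -0.01 without treated replicate 1, -0.45 without treated replicate 6, -0.39 without vehicle replicate 8 and -0.14 without vehicle replicate 3. A p that misses the threshold does not show that treated and vehicle muscle had the same level. The intervals reach an absolute log2 difference of 0.84 or more for 9 of the 10 genes, each in a single direction. Set beside young muscle, across both batches, Cdkn1a, Cdkn2a and Eda2r stood above it in all treated libraries, where 17.7% of all genes tested did, and Trp53 alone stood below, where 8.78% did. The young libraries served to choose the genes, and treatment, age and batch cannot be told apart there. Nothing is therefore read from these counts.

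In the authors' deposited table of SW033291 against vehicle, 2 of the 10 genes had an unadjusted p under 0.05, beside 2.74% of the 16666 genes with a p. They were Eda2r, with a log2 fold change of -0.50 (SE 0.23, unadjusted p = 0.026), and Phlda3, with 0.28 (SE 0.12, unadjusted p = 0.024). For Trp53 the authors' deposited table gave -0.35 (SE 0.30, unadjusted p = 0.24) and for Cdkn2a 0.78 (SE 0.86, unadjusted p = 0.37). Of the 10 genes, 7 were below 0 there. The sources used here do not say which libraries entered it.

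The gene lists below were also chosen with earlier results of these data known. Their p-values and counts with age and between batches are therefore descriptions and give no independent test. Further targets of p53 were counted first. Of 40 further targets, 32 passed the filter on low values, and with age in batch 1 the test called 1 higher and 0 lower, where 0.455% of all genes tested were called (54 of 11876). That gene was Gadd45a, a stress gene of growth arrest and DNA repair that is also raised in denervated muscle. Gadd45a averaged 158.2 ± 51.7 TPM in aged vehicle muscle of batch 1 and 53.5 ± 4.62 TPM in young muscle (SD, n = 3 and 4), a log2 difference of 1.50 (SE 0.22, limma adjusted p = 0.00793). The list's median was 0.06, the same as that of all genes. Of the 32, 4 stood above young muscle in every aged library of batch 1 and 0 below, beside 8.85% and 2.70% of all genes. Btg2, an antiproliferative gene, differed by 0.95 (SE 0.30, limma adjusted p = 0.227), and Bbc3, the cell death gene Puma, by 0.78 (SE 0.27, limma adjusted p = 0.275), both chosen for naming after their values were seen. With SW033291 none of the 32 was called, Gadd45a differed by -0.45 (SE 0.23, limma adjusted p = 0.517), and the list's median was -0.13, again that of all genes.

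Among 18 tested regulators of p53, 1 was called higher with age and 0 lower, where 0.455% of all genes tested were called. The gene called was Trp63, the p53 relative p63. It averaged 13.5 ± 4.86 TPM in aged vehicle muscle of batch 1 and 4.82 ± 1.17 TPM in young muscle (SD, n = 3 and 4), a log2 difference of 1.28 (SE 0.23, limma adjusted p = 0.0256). In treated muscle Trp63 differed from vehicle by -0.13 (SE 0.24, limma adjusted p = 0.845). Between aged vehicle batch 2 and batch 1, Rpl11, a ribosomal protein that binds Mdm2, was lower, with a log2 difference of -0.52 (SE 0.12, limma adjusted p = 0.0383). It was the one regulator called there, where 2.25% of all genes tested were called. That count over all genes fell from 267 to 1 in a fit on the 2 groups, and the call for Rpl11 was not rechecked. The median of the regulators was 0.20 with age and -0.19 with SW033291, beside 0.06 and -0.13 for all genes. In every aged library of batch 1, 6 of the 18 stood above young muscle and 0 below, beside 8.85% and 2.70% of all genes.

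Other cell cycle inhibitors and the machinery they act on had 0 genes called with age, where 0.455% of all genes tested were called. At that share a count of 0 in short lists is not read as a result. Among 4 other inhibitors Cdkn1b (p27) averaged 17.0 ± 0.418 TPM in aged vehicle muscle of batch 1 and 26.7 ± 4.83 TPM in young muscle (SD, n = 3 and 4), lower in every aged library, with a log2 difference of -0.61 (SE 0.14, limma adjusted p = 0.0786). Among 11 cyclins, kinases and retinoblastoma family genes Rb1 averaged 10.2 ± 1.90 TPM in aged vehicle muscle of batch 1 and 4.79 ± 0.861 TPM in young muscle (SD, n = 3 and 4), a difference of 0.95 (SE 0.20, limma adjusted p = 0.0543). Of those 11 genes, 3 stood above young muscle in every aged library of batch 1 and 1 below, beside 8.85% and 2.70% of all genes. The 10 tested relatives of Bax in the Bcl2 family had a median of 0.06 with age and 0.02 with SW033291. In either comparison 0 were called, beside 0.455% and 0.00% of all genes tested. Of 2 tested relatives of Ccng1 and Phlda3, Ccng2 differed by 0.35 and Phlda1 by 0.32 with age. In these too 0 were called with age or with SW033291, beside the same shares.

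Genes around Eda2r were counted from a list of ectodysplasin receptors and NF-kB signalling, of which 13 of 17 passed the filter. None was called with age or with SW033291, beside 0.455% and 0.00% of all genes tested. With age 3 of the 13 stood above young muscle in every aged library of batch 1, beside 8.85% of all genes. Nfkb2, an NF-kB subunit of the non-canonical route, averaged 16.2 ± 6.98 TPM in aged vehicle muscle of batch 1 and 6.78 ± 1.09 TPM in young muscle (SD, n = 3 and 4), a log2 difference of 1.08 (SE 0.29, limma adjusted p = 0.144). Its partner Relb differed by 0.52 (SE 0.17, limma adjusted p = 0.233) and Tnfrsf19, a related receptor, by 0.86 (SE 0.28, limma adjusted p = 0.235). In treated muscle 12 of the 13 genes had a negative difference, beside 71.0% of all genes, and 4 stood below vehicle in every library, beside 15.1% of all, with a list median of -0.39 beside -0.13 for all genes.

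Genes linked to the senescence secretome and to denervation were counted last. Of 20 secreted and other senescence-linked genes 13 passed the filter, and their median with age was -0.12. With age or with SW033291 0 were called, beside 0.455% and 0.00% of all genes tested. Igfbp5, a binding protein of insulin-like growth factors, averaged 349.2 ± 126.1 TPM in aged vehicle muscle of batch 2 and 162.7 ± 42.8 TPM in aged vehicle muscle of batch 1 (SD, n = 3 each), higher by 1.07 (SE 0.23, limma adjusted p = 0.0333). Between those groups 2.25% of all genes tested were called. As for Rpl11, the call for Igfbp5 was not rechecked in the fit on the 2 groups, where 1 gene was called in place of 267. Igfbp5 stood at 238.6, 198.6, 290.6 and 230.8 TPM in young muscle, against 122.7, 157.6 and 207.9 TPM in aged vehicle muscle of batch 1. In SW033291 muscle it stood at 165.9, 200.1 and 206 TPM. Of 9 tested genes that muscle raises on loss of its nerve, 7 stood above young muscle in every aged library of batch 1 and 0 were called, beside 8.85% above and 0.455% called over all genes tested, and the list's median was 0.93. The 3 with the largest difference were Musk (1.38, limma adjusted p = 0.0598), Chrng (1.33, limma adjusted p = 0.111) and Chrna1 (1.13, limma adjusted p = 0.0899). Of these, Chrng averaged 0.73 TPM over the 13 libraries. The summed level of all 10 denervation genes was 76.38 to 81.65 TPM in SW033291 muscle, 107.5 to 122.0 TPM in aged vehicle muscle of batch 2, 78.48 to 129.4 TPM in aged vehicle muscle of batch 1 and 41.27 to 51.48 TPM in young muscle. That sum ran lower in treated than in vehicle muscle of batch 2, as Eda2r did, but its lowest value in aged vehicle batch 1, 78.48 TPM, lay within the treated range. The sum was not tested, nor was its part in the values of Cdkn1a and Eda2r. With SW033291 0 of the 9 tested genes were called (lowest limma adjusted p = 0.418). Of these genes 2 stood below vehicle in every treated library, beside 15.1% of all genes.

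**Figure D4:**
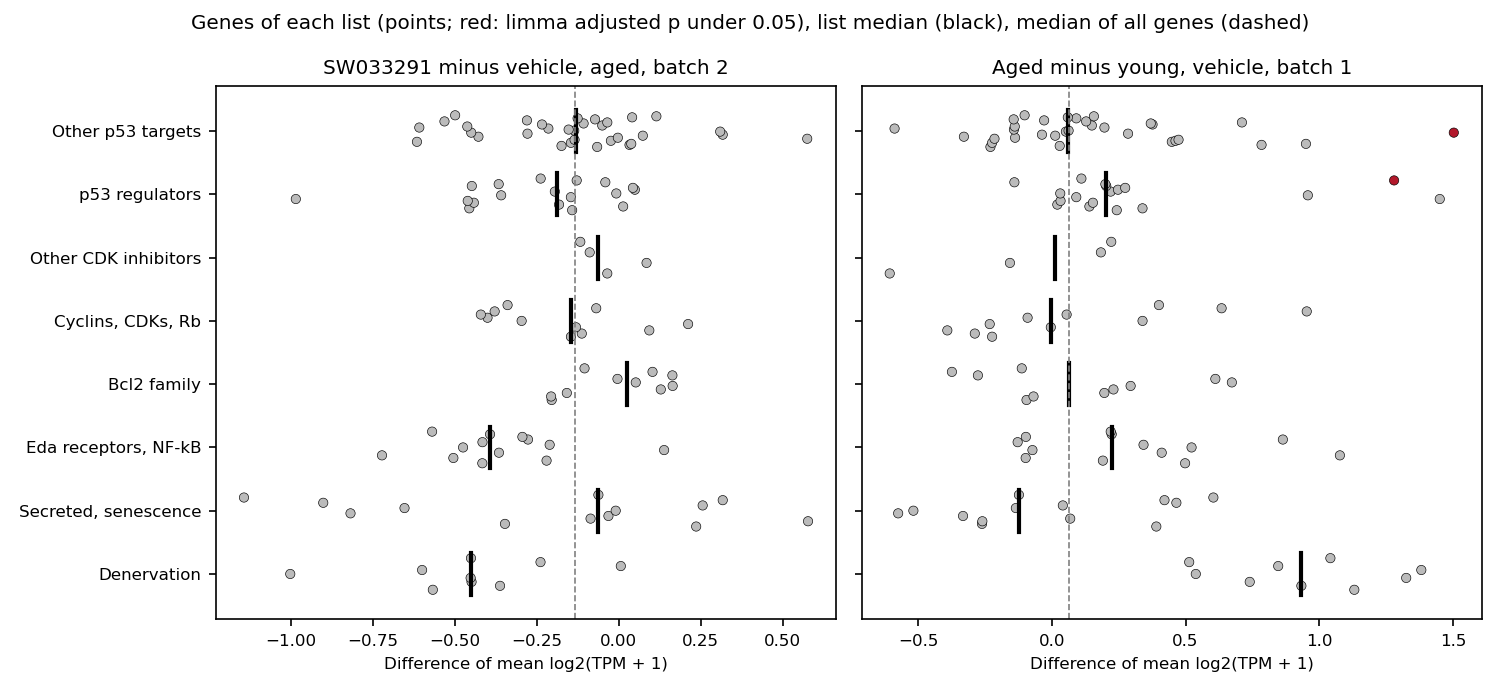
Difference of mean log2(TPM + 1) for each tested gene (points) of 8 lists, for SW033291 minus vehicle in aged muscle and for aged minus young muscle in batch 1, with list medians as black bars and the median of all genes as a dashed line. Red points mark the 2 genes with a limma adjusted p under 0.05, Gadd45a and Trp63, both with age, while the denervation list has the highest median with age (0.93) and the lowest with SW033291 (-0.45). The lists were chosen with earlier results of these data known, so the points with age are a description.

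The genes whose levels ran closest to Cdkn1a over the 13 libraries were Ech1, a peroxisomal and mitochondrial isomerase (Pearson r = 0.930), Tubb6, a beta tubulin (0.913), and Chrng, the fetal subunit of the acetylcholine receptor (0.908). Within groups, as deviations from group means, these correlations were 0.871, 0.780 and 0.802. Chrng averaged 0.73 TPM over the 13 libraries, so its correlation rests on very low levels. Closest to Eda2r were A330074K22Rik (0.970, and 0.971 within groups), Lrp2bp (0.933, and 0.817 within groups) and Oaz2, an antizyme of ornithine decarboxylase (0.932, and 0.620 within groups). Closest to Cdkn2a were Rps19, a ribosomal protein (0.882, and 0.716 within groups), Rbm12b1 (0.881, and 0.808 within groups) and Guk1, a guanylate kinase (0.877, and 0.413 within groups). These values are descriptions over 13 libraries that share 4 groups and 2 batches, picked as the highest of all genes tested.

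Some of these genes share sequence or position with others in the GENCODE M21 annotation. Of the distinct 50-base runs of Cdkn1a transcripts 8.49% also occur in transcripts of other genes, for Bax 8.51% (all in Gm45808, which overlaps it on the same strand), for Trp53 3.95% and for Mdm2 1.32%. The other 6 genes share none. Cdkn1a overlaps AC167363.2 on the opposite strand, and reads of both cannot be told apart without strand. Neither overlapping gene was in the deposited table.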

How the data were processed

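RNA of whole quadriceps lysates (TruSeq RNA v2 libraries, per the labels' protocols) was measured in 13 libraries. Tools named in the submitters' processing notes are STAR, RSEM, DESeq and DESeq2, and the build is mm9; the sources used here do not give their versions. Deposited by the authors were TPM values for 24015 genes, and 0 columns belonged to other samples. Per the file headers, the authors' tables for age (813 genes) and SW033291 (24013 genes) hold log2 fold changes with SE, p-values, a test statistic (a score) and a mean of normalised counts (a signal).

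Gene names in the TPM table were off their rows: 27 spreadsheet dates were undone and the names sorted in byte order. Mean TPM then correlated with the authors' deposited means at a Spearman rho of 0.960 across 23988 genes, against -0.018 as deposited. Around each of the 10 genes log2 differences of SW033291 correlated at 0.926 to 0.973 with the authors' values across 43 to 93 neighbouring genes, and at 0.295 at most with names moved by 1 place.

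For the tests, log2(TPM + 1) went into limma 3.58.1 (R 4.3.3), with moderated variances with a trend, 1 coefficient per group over 13 libraries, and Benjamini-Hochberg adjustment at 0.05. The 10 genes and all lists were chosen with earlier results of these data known. Named from the lists were genes called in a comparison and, elsewhere, up to 3 genes with the largest age difference, and for Cdkn1a, Eda2r and Cdkn2a the 3 genes of highest correlation. Tigar, Cop1 and Adgre1 were matched through RefSeq synonyms. Scripts were tested on simulated data. Alternatives were a pseudocount of 0.1, no filter, median-of-ratios scaling, fits on 2 groups, a replicate block and leaving out each library.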

Additional observations from a re-analysis of the deposited data

How the results depend on the processing

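Of the 10 genes, none crossed the threshold or changed sign with SW033291 in 100 recomputed values, where the adjusted p stayed between 0.257 and 0.996 (limma). The count of genes called with SW033291 was 0, with 1221 at an unadjusted p under 0.05; it was 4 (3 higher, 1 lower) with a pseudocount of 0.1, and 0 to 1 when single libraries were left out, the 1 without replicate 4 of the treated group. The count with age was 54, and became 27 without the filter on low values and 24 in a fit on the 2 groups. It was 19 to 92 with single libraries left out: leaving out young replicate 1 or aged replicate 2 gave 19, young replicate 5 gave 21, young replicate 4 gave 26 and aged replicate 4 gave 92. Median-of-ratios scaling split the age calls into 36 higher and 20 lower, in place of 44 and 10. The replicate block gave 4 calls with age, all higher; young and aged libraries share only the numbers 3 and 4, whose deviations correlated at 0.171 and 0.040, so the numbers are not taken as pairs. Between aged vehicle batch 2 and batch 1, 267 genes were called (204 higher, 63 lower), 144 with median-of-ratios scaling (46 higher, 98 lower), 1 in a fit on the 2 groups, and 18 to 1643 with single libraries left out (18 without batch 1 replicate 2, 21 without batch 2 replicate 2 or 3, 478 without batch 2 replicate 8). There Eda2r lay between -0.46 and 0.20, the reversal being without batch 1 replicate 4; without it 4 of the 10 genes crossed the threshold, in a comparison that holds libraries used in the choice of the genes, and 1643 genes were called. The 3 genes wholly above young muscle became 4 and the 0 below became 1 without aged replicate 4, an omission chosen after seeing the data. The causes of these shifts were not tested, except that fewer samples or more genes adjusted over are part of some settings. Depth is unknown, so no counting error can be set beside any level.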
